A study of Mus musculus with 2 samples.

Results

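Cells of the outer root sheath type, the keratinocytes that line the growing hair follicle on its outside, were studied in 2 single-cell RNA libraries of dorsal mouse skin taken on postnatal day 3. A barcode was a member when it held at least 1000 unique molecular identifiers (UMIs, each standing for 1 captured RNA molecule), at least 500 genes and under 15% mitochondrial UMIs, passed limits on keratin and collagen genes, and showed at least 3 of 6 markers, Lhx2, Tbx1, Lgr5, Nfatc1, Shisa2 and Edn2. The limits were set in UMIs per 10000, with Krt5 and Krt14 together at 50 or more, Krt1 and Krt10 under 50, Krt75 under 5, Shh and Msx2 under 1, and Col1a1 and Col3a1 under 20. The rule found 1177 control and 585 induced cells, in all 1762 of the 10436 barcodes that passed the first 3 filters and of the 18186 deposited. The control library was of the wild-type genotype and the other carried the label miR-200b induced, and both had the treatment label Dox, given here as the labels write it. The labels give neither the induction construct and the cells that drive it, nor the number, sex or strain of the animals behind each library. Epidermis and dermis, which holds the follicles, were dissociated apart and the suspensions mixed at 30% to 70%, so shares of cell types follow that mix and not the skin itself. With 1 library per group there is no replicate, no difference below has a test, and all intervals are 95% intervals that cover counting error only.

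The outer root sheath is continuous with the basal epidermis and holds, or gives rise to, the stem cells of the later bulge. Sox9 and Lhx2 are transcription factors needed to form and keep these cells, Lgr5 marks cycling follicle stem cells, and Wnt, BMP and hedgehog signals set when they divide. The microRNA-200 family is abundant in epithelia and acts by pairing of its seed, the short stretch near its 5′ end, with the 3′ untranslated regions (UTRs) of messenger RNAs, which lowers their level or translation.

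The family is shown here because the induced member shares its seed with others, so that a matching UTR cannot name the family member. The seed, bases 2 to 8, is in capitals, and the sequences come from RefSeq on GRCm38.p6.
miR-200b-3p: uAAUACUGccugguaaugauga
miR-200c-3p: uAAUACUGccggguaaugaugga
miR-429-3p: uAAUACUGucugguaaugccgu
miR-200a-3p: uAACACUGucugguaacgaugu
miR-141-3p: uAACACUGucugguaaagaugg
The first 3 share 1 seed, whose match in an RNA-coding DNA strand is CAGTATT, and the other 2 share CAGTGTT. The genes of miR-200b, miR-200a and miR-429 lie on chromosome 4, with the mature miR-200b at chr4:156055685-156055706 on the minus strand, and those of miR-200c and miR-141 lie on chromosome 6. Mature microRNAs carry no poly(A) tail and were not measured.

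Sequencing gave 9072 control barcodes with 100409201 UMIs in all and 9114 induced barcodes with 119705137. The filters kept 5178 and 5258 barcodes, at medians of 14748 and 18019.5 UMIs, and the mitochondrial limit removed 463 and 1129. Barcodes present in both libraries numbered 74, of which 10 passed the filters in both, and 2 control members and 1 induced member carried a shared barcode. Members had medians of 13698 and 16549 UMIs, ranging from 1539 to 232181 for control and from 2578 to 139887 for induced members. A doublet caller with its automatic threshold marked 2 and 1 barcodes, which is too few to be of use, so doublets were kept. Members with over 60000 UMIs numbered 33 in the control and 13 in the induced library, and values that turn on them are given without them.

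The label was checked on follicle genes that the rule did not use. Sox9 stood at 728 CPM (717 to 739) in the control members and 567 CPM (554 to 581) in the induced members, where CPM (counts-per-million) scales the UMIs of a gene to a common total over the summed cells. In gated keratinocytes with 0 of the 6 markers, called other basal keratinocytes here, it stood at 112 and 103 CPM. Sox9 was thus several-fold higher in members in each library, although the 16 control and 24 induced cells of the companion layer, set apart by Krt75, held more, at 1199 and 1113 CPM. It was present in 98.7% of control and 98.3% of induced members. Members were chosen on other genes of the same cells, so the difference carries no test. The other basal keratinocytes were a mixed class, set by the gate alone. They held 7318 and 773 CPM of 12 sebaceous genes summed, and 3657 and 1370 CPM of 9 upper follicle genes. Whether their make-up or their expression differed between the libraries was not tested. After each cell was thinned to 2000 UMIs, Sox9 was found in 70.2% and 61.7% of members and in 1.27% and 3.32% of fibroblasts, which should lack it. The fibroblasts had medians of 9485.5 and 6193 UMIs before thinning. Krt17, a keratin of the follicle epithelium, was at 4879 and 6302 CPM in members and 1361 and 2479 CPM in other basal keratinocytes. The transcription factors Nfib, Barx2, Tcf7l2 and Tcf7l1 were each higher in members than in other basal keratinocytes in both libraries, Nfib for example at 1463 against 546 CPM in the control. Not every gene of the label was, and Krt15 was lower in the control. On the list of other outer root sheath and bulge genes, 11 of 25 were at least 2-fold higher in members in both libraries. This count had no minimum level, and it was 12 in the control and 18 in the induced library taken alone. Of 5361 genes that averaged 20 CPM or more, 2.56% were at least 2-fold higher in both.

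**Figure D1:**
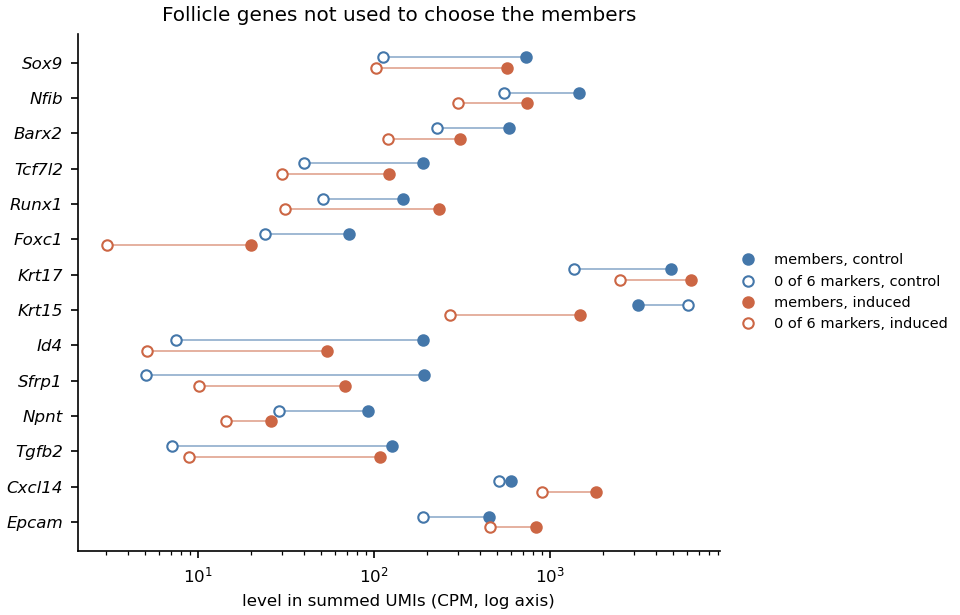
Levels of 14 follicle genes in UMIs summed per class and library, in CPM on a log axis. Filled points are members and open points gated keratinocytes with 0 of 6 markers. Sox9, Nfib, Tcf7l2, Id4, Sfrp1 and Tgfb2 lie to the right in members of both libraries, while Krt15 is lower in control members than in the control comparison cells.

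Markers of other identities set the limits of the label. Cd34, a surface marker of the adult bulge, was near absent from members at 2.97 and 3.54 CPM, while fibroblasts held 431 and 322 CPM. Of 8 fibroblast genes summed, members held 203 and 285 CPM, most of it Postn, against 71304 and 50029 CPM in fibroblasts. The 8 immune genes summed to 5.11 and 5.51 CPM, with 2 of 8 at 0 in the control and 4 of 8 in the induced members, and the 6 Merkel cell genes to 13.6 and 15.1 CPM. The 8 melanocyte genes summed to 24.2 CPM in control and 45.8 CPM in induced members, with Dct, a melanin enzyme, at 5.43 and 17.03 CPM. Fibroblasts of the same libraries held 1.81 and 11.8 CPM of Dct. The 8 matrix genes, which the gate partly removes through Shh and Msx2, summed to 79.7 and 74.1 CPM, of which Hoxc13 gave 59.7 and 33.6 CPM. The 4 Schwann and blood cell genes summed to 79.7 and 7.32 CPM, most of it Hbb-bs, a haemoglobin, in the control.

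The 6 markers chose the members, so their values are a description of the choice. Lhx2, a LIM-homeodomain factor, was found in 96.8% of control and 97.3% of induced members, at 359.9 CPM (352 to 368) and 350.5 CPM (340.0 to 361). Tbx1, a T-box factor, was found in 81.3% and 62.7%, at 181 CPM (176 to 187) and 96.2 CPM (90.8 to 102). Lgr5, a receptor for R-spondins that strengthen Wnt signals, went the other way in the share of members that showed it, 57.5% and 70.1%, while its level was 88.8 and 87.3 CPM. Nfatc1, a factor that keeps bulge cells quiet, was found in 68.8% and 62.1% of members, at 127 and 73.04 CPM. Shisa2, which holds Wnt and FGF receptors inside the cell, was found in 64.3% and 41.4%, at 108 and 47.5 CPM. Edn2, an endothelin, was found in 37.2% and 47.9%, at 57.9 and 47.5 CPM. Depth bears on each share, since induced members were deeper. After thinning, Shisa2 was found in 23.6% of control and 14.9% of induced members and Lgr5 in 16.6% and 17.3%, while fibroblasts showed Shisa2 in 1.45% and 0% and Lgr5 in 3.44% and 4.74%. A count of 0 in the 211 induced fibroblasts allows up to 1.42%, taking 3 counts as the limit.

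The markers were met in different sets in the libraries. Lhx2 with Tbx1, Nfatc1 and Shisa2 was the most frequent set in the control members, in 127 cells or 10.8%, and all 6 markers were found in 124 cells. In the induced members the most frequent set was Lhx2 with Lgr5 and Nfatc1, in 78 cells or 13.3%, and all 6 were found in 31 cells. Tbx1 and Shisa2 went together. Among control members with Tbx1, 68.7% also held Shisa2, against 45.5% of those without it, and among induced members the shares were 55.9% and 17.0%. Lgr5 and Shisa2 did not, at 61.3% of control members with Lgr5 against 68.4% without it, and 37.8% against 49.7% in the induced library. Choosing cells with at least 3 of 6 markers itself makes the remaining markers less frequent where 1 is present. Depth also bears on joint detection, and these shares are from cells that were not thinned.

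Cells on either side of the threshold differed in the rule genes as the rule sets them. Cells with 3 of 6 markers numbered 410 in the control and 274 in the induced library and held 257 and 220.0 CPM of Lhx2, 115 and 41.7 CPM of Tbx1, and 35.8 and 51.8 CPM of Lgr5. Cells just outside, with 2 of 6, numbered 406 and 344 and held 118 and 88.6 CPM of Lhx2, 30.6 and 4.90 CPM of Tbx1, and 12.1 and 23.4 CPM of Lgr5. Nfatc1 differed least across that border, at 102 CPM outside and 113 CPM inside in the control.

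**Figure D2:**
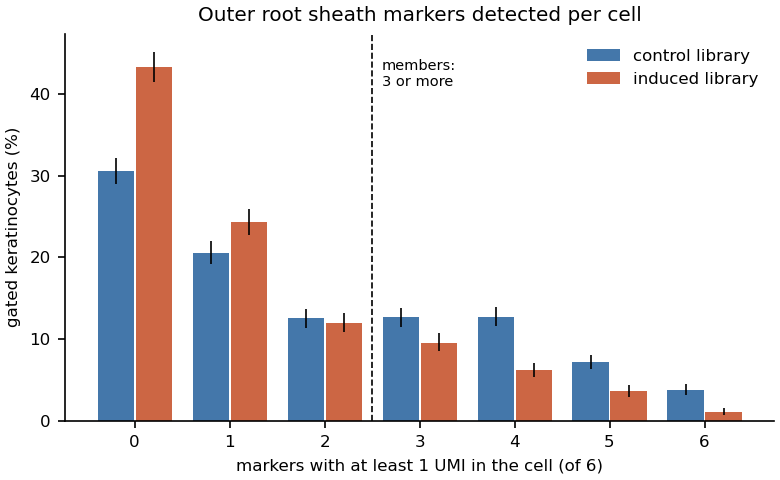
Share of gated keratinocytes, in percent, by the number of the 6 markers with at least 1 UMI in the cell, for 3240 control and 2867 induced cells. Error bars are exact 95% binomial intervals and the dashed line marks the rule. The induced library has more cells at 0 and 1 markers and fewer at 3 to 6.

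Members were a smaller share of the induced library. They made up 22.7% of the kept control barcodes (exact Clopper-Pearson interval 21.6% to 23.9%) and 11.1% of the kept induced barcodes (10.3% to 12.01%), a log2 ratio of -1.03 (-1.18 to -0.89). Of the gated keratinocytes they were 36.3% and 20.4%. The rule counts detected genes, and the induced cells were deeper. When each cell was first thinned to 2000 UMIs, which left out 84 control and 406 induced cells, members were 8.43% and 2.86% of the gated keratinocytes. The ratio grew with the number of markers asked for, from a log2 of -0.79 at 2 or more markers to -1.32 at 4 or more. Tbx1, Nfatc1 and Shisa2, which are in the rule, were at lower CPM in induced members, so fewer cells of this type and less marker RNA per cell cannot be told apart. The parts that dissociation, the mix of layers and the animals play were not tested.

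Members were set beside other basal keratinocytes to see which genes, outside the rule, went with the choice. In each library, genes were kept where members and those cells averaged 20 CPM or more. Of 5361 such genes, 137 (2.56%) were at least 2-fold higher in members in both libraries and 56 (1.04%) at least 2-fold lower. These describe the choice and carry no test. The 12 genes with the largest such excess were Col14a1, Wfdc18, Mfap2, 6330403K07Rik, Bnc2, Nppc, Tgfb2, Cald1, Mfge8, Trps1, Basp1 and Elmo1. Tgfb2, a ligand of the TGF-beta family that acts in follicle formation and bulge activation, was at 127 and 108 CPM in members and at 7.09 and 8.87 CPM in other basal keratinocytes. Bnc2, a zinc-finger protein, was at 80.5 and 71.3 CPM against 5.26 and 3.04 CPM, and Trps1, a repressor of the GATA family with a role in hair growth, at 45.1 and 70.1 CPM against 1.72 and 3.35 CPM. Fibroblasts held 3.62 and 13.1 CPM of Bnc2 and far more Trps1 than members, 512 and 546 CPM.

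Several genes of this group encode matrix or cytoskeletal proteins that fibroblasts also hold. Col14a1, a fibril-associated collagen, was at 53.5 and 62.1 CPM in members and under 1 CPM in other basal keratinocytes, at 0.277 and 0.419 CPM, while fibroblasts held 201 and 80.2 CPM. Mfap2, a microfibril protein, was at 146 and 73.6 CPM in members, 5.10 and 3.81 CPM in other basal keratinocytes and 1222 and 908 CPM in fibroblasts. Col1a1, which fibroblasts hold in abundance, was at 16.1 and 11.2 CPM in members against 11.6 and 4.96 CPM in other basal keratinocytes, and the gate limits it. Cald1, an actin-binding protein, was at 354 and 208 CPM in members and 39.99 and 11.4 CPM in the other cells, but companion cells held 714 and 305 CPM and fibroblasts 562 and 658 CPM. Companion cells also held more Nppc than members, at 86.6 and 89.8 CPM, and more Basp1, at 348 and 125 CPM. Wfdc18 and Nppc, the C-type natriuretic peptide, rested on few cells, with 71.2% of the control Wfdc18 UMIs and 33.99% of the Nppc UMIs in the 10 highest control members.

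The 6 genes lowest in members against the other basal cells were Igfbp2, Wnt3 and the cystatin-family genes Cstdc5, Csta1, Stfa3 and Cstdc6, which lie together on chromosome 16 and include close copies, so that counting could split reads among them. Igfbp2, which binds insulin-like growth factors, was at 7.90 and 14.5 CPM in members and 187 and 168 CPM in other basal keratinocytes. Wnt3 was at 2.37 and 6.50 CPM against 71.7 and 68.99 CPM. Cstdc5 was at 127 and 446 CPM against 4249.9 and 3935 CPM. Each of these 6 was higher in induced than in control members, though still below the other basal cells. The 10 highest induced members held 56.6% of the Cstdc5 and 64.1% of the Stfa3 UMIs. With members found on thinned cells the direction of Stfa3 turned, as given below.

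The comparison of induced with control members asks what differs within the outer root sheath type when miR-200b is induced. The native locus of miR-200b was read first, through Gm13648 (ENSMUSG00000086549, chr4:156052715-156059802, minus strand, GRCm38), a transcript that spans the miR-200b gene. It was at 2.37 CPM (1.76 to 3.11) in control members, from 51 UMIs, and 432 CPM (420.3 to 444) in induced members, from 5251 UMIs, a log2 ratio of 7.51 (7.11 to 7.94) without, and 5.89 with, 5 CPM added to both. After thinning it was found in 0.765% of control and 44.6% of induced members. Induced fibroblasts showed it in 5.69%, so most of the share in members lay above that background, and 68.1% of the induced basal keratinocytes with 0 of 6 markers showed it. In the induced library its level was lower where more follicle markers were found, from 708 CPM at 0 markers to 534 CPM at 2, 472 CPM at 3 and 432 CPM over all members. The 24 induced companion cells, keratinocytes with Krt75, held 5.79 CPM. The labels do not say whether the construct contains Gm13648 sequence, so construct and native transcript cannot be told apart.

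Between the libraries, 6107 genes that averaged 20 CPM or more were compared on log2 ratios of CPM plus 5. Of these, 123 (2.01%) were at least 2-fold higher in induced members with Poisson intervals apart and 157 (2.57%) at least 2-fold lower. The median ratio over all 6107 genes was -0.05, with the 10th percentile at -0.60 and the 90th at 0.47. After Gm13648, the largest excesses were those of Gm47316, Krt16, Map1b, Cxcl12, Htra1, Ly6e, Krt19, Efcab1, Stfa3, Ifitm3 and Cryzl2. The largest deficits were those of Pinlyp, Elovl6, Oat, Scd1, Alad, Lgals1, Sptssa, Ncam1, Gjb6, Prdx2, Tuba1b and Sdr16c5.

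**Figure D3:**
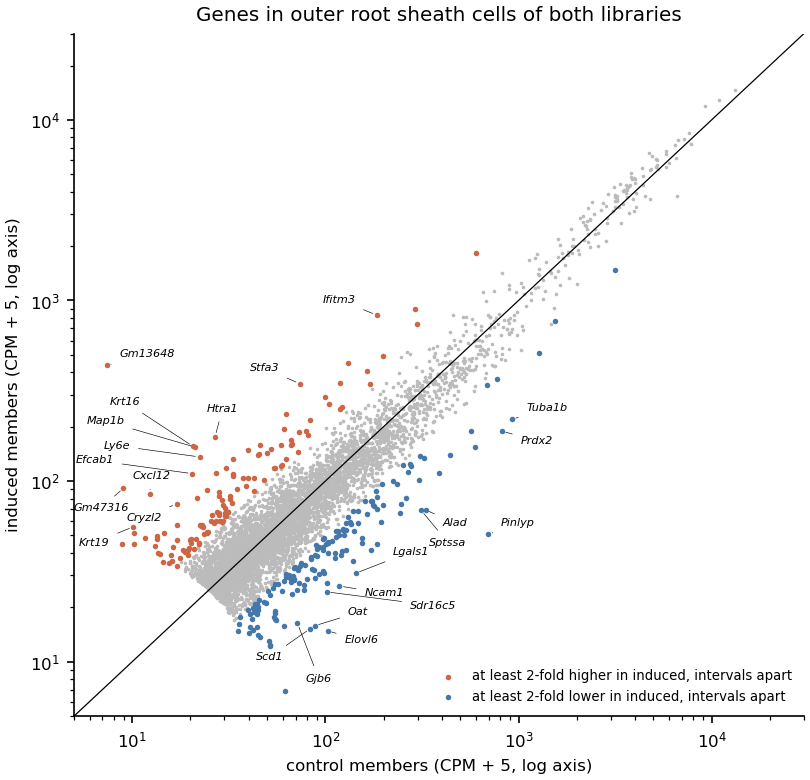
Levels of 6107 genes in control members (horizontal) and induced members (vertical), in CPM plus 5 on log axes. Coloured points are the 123 genes at least 2-fold higher and the 157 at least 2-fold lower in induced members with intervals apart, the 24 named genes are labelled, and the line marks equal levels. Gm13648 stands farthest above the line, at 2.37 and 432 CPM before 5 is added, and Pinlyp farthest below among the named genes.

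Some of the higher genes were high in members and not in the other basal keratinocytes. Cxcl12, a chemokine better known from dermal cells, was at 7.29 CPM (6.20 to 8.53) in control members and 79.9 CPM (74.9 to 85.1) in induced members, a log2 ratio of 2.79. In the other basal keratinocytes it was at 1.16 and 1.99 CPM. Fibroblasts held 93.3 and 289 CPM. Companion cells held 3.77 and 35.7 CPM, and gated cells with 2 of 6 markers 8.23 and 20.6 CPM, so the excess was not found in members alone. The 10 highest control members held 40.1% of the control Cxcl12 UMIs. Of the fibroblast genes in members, Postn was at 117 and 253 CPM and Col1a1, which the gate limits, at 16.1 and 11.2 CPM, and the 8 summed to 203 and 285 CPM, whose part in the Cxcl12 values was not tested. Thinned to equal depth, Cxcl12 was found in 1.87% of control and 17.8% of induced members, 0.510% and 0.329% of other basal keratinocytes, and 13.9% and 21.8% of fibroblasts. Krt19, a keratin of bulge and simple epithelia, was at 5.11 CPM (4.20 to 6.16) and 50.7 CPM (46.8 to 54.9), a log2 ratio of 2.46, and at 0.831 and 1.05 CPM in the other basal cells. The 10 highest control members held 76.4% of the control Krt19 UMIs, and without the members over 60000 UMIs its ratio was 3.05. It was found in 2.72% of control and 24.8% of induced members, or 0.340% and 5.47% after thinning, while 0 of 553 and 0 of 211 thinned fibroblasts showed it, which by the limit of 3 counts allows shares of up to 0.542% and 1.42%. The companion cells held 104 and 143 CPM of Krt19.

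Htra1, a secreted serine protease, had a log2 ratio of 2.72 in members, from 21.8 to 171 CPM, and 0.52 in other basal keratinocytes. Map1b, a microtubule protein, went from 16.1 to 149 CPM in members (log2 ratio 2.87) and from 17.6 to 59.6 CPM in the other cells (1.52). Mfge8, a secreted protein that bridges dying cells and phagocytes and is named above for its excess over other basal cells, was higher in both, with ratios of 1.79 and 1.73. Ifitm3, an interferon-inducible membrane protein, had ratios of 2.17 in members and 2.30 in other basal cells, and Efcab1 2.43 and 2.31. The ratio of Ifitm3 in members was 1.41 in those with fewer than 2 G2/M UMIs and 1.43 when they were found on thinned cells. Ly6e, a GPI-anchored protein, had 2.61 and 1.58. No difference between the classes was tested.

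Krt16 and Stfa3 were led by few cells. Krt16, a keratin of activated keratinocytes and of the companion layer next to the sheath, was at 15.6 and 151 CPM, and 83.6% of its induced UMIs came from the 10 highest members. Its log2 ratio was 2.92 from the summed UMIs and 1.94 when each cell counted equally, and other basal keratinocytes gave 2.86, at 43.4 and 347 CPM. Krt6a, another such keratin whose close copy Krt6b may share reads with it, was at 114 and 342 CPM, a log2 ratio of 1.55. The 10 highest induced members held 64.1% of the Stfa3 UMIs, and its ratio was 2.23 as summed and 1.30 per cell, but -0.32, in the other direction, with members found on thinned cells.

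Among the lower genes, a group was lower in both keratinocyte classes and did not rest on few cells. Alad, an enzyme of haem synthesis, was at 325 CPM (318 to 333) in control members and 64.3 CPM (59.9 to 68.99) in induced members, a log2 ratio of -2.25, with -2.93 in other basal keratinocytes. Sptssa, a subunit of serine palmitoyltransferase that starts sphingolipid synthesis, was at 308 CPM (300.4 to 315) and 63.9 CPM (59.5 to 68.6), with ratios of -2.18 and -2.62. Prdx2, a peroxiredoxin, was at 814 and 184 CPM (log2 ratio -2.12), and Tuba1b, an alpha-tubulin whose close copies may share reads with it, at 918 and 214 CPM (-2.07). Oat, ornithine aminotransferase, was at 82.9 and 10.8 CPM (-2.48). For these 5 genes the 10 highest control members held at most 15.2% of the UMIs, and leaving out members over 60000 UMIs gave ratios from -2.59 for Oat to -2.12 for Prdx2.

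Lgals1, a galectin, was at 138 and 25.8 CPM in members, a log2 ratio of -2.22, against -0.43 in other basal keratinocytes, and at 5876 and 2779 CPM in fibroblasts. Ncam1, an adhesion molecule, was at 113 and 21.2 CPM (-2.17), and Gjb6, a connexin of follicle and basal cells, at 66.6 and 11.3 CPM (-2.14), with ratios of -0.68 and -1.81 in other basal keratinocytes. Gated cells with 2 of 6 markers gave -1.06 for Lgals1, -2.23 for Ncam1 and -2.68 for Gjb6. Companion cells gave -2.18, -0.59 and -1.14, so these deficits were not found in members alone. Pinlyp, Elovl6 and Scd1 rested in members on a few cells. The 10 highest control members held 98.2% of the Pinlyp UMIs, and without members over 60000 UMIs the log2 ratio of Pinlyp moved from -3.78 to 1.44, in the other direction. Companion cells held 1598 and 2325 CPM of Pinlyp. Elovl6 and Scd1, enzymes of fatty acid synthesis that are abundant in sebaceous cells, had 71.5% and 81.9% of their control UMIs in 10 cells, and without the large members their ratios went from -2.80 and -2.45 to -2.11 and -1.24. With the 7% highest doublet scores removed they were -1.45 and -0.82, and with members found on thinned cells -1.06 and -0.31. Other basal keratinocytes differed more, Elovl6 at 970.2 and 6.57 CPM (-6.40) and Scd1 at 1093 and 20.02 CPM (-5.46). Those cells were a mixed class, as given above, and whether their make-up or their expression differed was not tested.

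Of 33 transcription factors of follicle stem cells on the list, 28 averaged 20 CPM or more, 1 was at least 2-fold lower (3.57%, against 2.57% of all genes), 0 were 2-fold higher (against 2.01%), and 21 of 28 were below 0, with a median of -0.18 against -0.05 over all genes. The 28 include the rule markers Lhx2, Nfatc1 and Tbx1, all below 0, which leaves 18 of 25 below 0. Foxc1, a forkhead factor that keeps follicle stem cells quiet, was the 1 past 2-fold, at 72.03 CPM (68.5 to 75.7) in control and 20.1 CPM (17.6 to 22.8) in induced members, a log2 ratio of -1.62. It was lower in other basal keratinocytes too, at 24.2 and 3.04 CPM. Nfib, which coordinates follicle and melanocyte stem cells, was at 1463 CPM (1446 to 1479) and 737 CPM (721 to 752) (-0.98), just short of 2-fold. Across cells its median was 15.2 UMIs per 10000 in control members and 7.55 in induced members, with the middle 50% of cells from 11.2 to 20.4 and from 5.501 to 10.3, so these middle ranges did not overlap. Barx2, a homeobox factor of follicle remodelling, was at 584 and 309.9 CPM (-0.90), with cell medians of 5.90 and 2.83 per 10000.

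Sox9 differed less. It had a ratio of -0.36, with cell medians of 6.71 and 5.29 UMIs per 10000 and middle ranges of 3.99 to 10.7 and 2.91 to 8.72, which overlapped widely. Runx1 and Foxp1, a pair of factors of the hair cycle, lay above 0 within 2-fold, at 145 and 234 CPM (0.67) and 78.6 and 148 CPM (0.87). Without members over 60000 UMIs the ratio of Foxp1 was 1.24, past 2-fold. Trp63, the master factor of stratified epithelia, was at 316 and 236 CPM (-0.42).

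Keratins moved in both directions. Of 12 on the list that averaged 20 CPM or more, 3 were at least 2-fold higher, Krt16, Krt6a and Krt19, and Krt15 was at least 2-fold lower, against 2.01% higher and 2.57% lower of all genes. Krt15, a keratin of basal cells and of the bulge, was at 3164 CPM (3140.3 to 3188) in control and 1476 CPM (1454 to 1498) in induced members, a log2 ratio of -1.10. Cell medians were 29.9 and 13.3 UMIs per 10000. The other basal keratinocytes differed more, at 6086 and 270.0 CPM, so that members held less Krt15 than those cells in the control library and more in the induced library. Krt5 and Krt14, which are in the gate, were at 3889 and 3648 CPM and 5991 and 5788 CPM in members.

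Genes of the Wnt pathway, which drives follicle growth, were ordered by role. Of 13 Wnt ligands, 4 were measured at a mean of 20 CPM or more, and Wnt7b was at least 2-fold higher, at 22.9 CPM (20.96 to 25.1) and 59.7 CPM (55.4 to 64.2), a log2 ratio of 1.21, where 2.01% of all genes were. Wnt4 was at 105 and 176 CPM (0.72) and Wnt10a at 24.9 and 50.6 CPM (0.89). Of 12 measured receptors and R-spondin receptors, 0 passed 2-fold in either direction, against 2.01% higher and 2.57% lower of all genes, and their median was 0.07, with Lgr5, a rule marker, among them. Among them Fzd2 and Fzd7, frizzled receptors that were higher in members than in other basal cells, were at 136 and 78.5 CPM (-0.76) and 85.8 and 51.5 CPM (-0.69). Lgr4, a close relative of Lgr5, was at 148 and 184 CPM.

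Besides Shisa2, which is in the rule, 5 Wnt inhibitors were measured. Of these 5, 4 were below 0 and 1, Sfrp1, was at least 2-fold lower, against 2.57% of all genes. Sfrp1, a secreted decoy for Wnt ligands, was at 193 CPM (187 to 199) in control and 68.2 CPM (63.6 to 72.99) in induced members, a log2 ratio of -1.43. Other basal keratinocytes held 5.10 and 10.1 CPM, so the gene was higher in members in both libraries. Thinned, it was found in 29.9% of control and 13.3% of induced members, against 3.25% and 5.21% of fibroblasts. Sostdc1, an inhibitor of both Wnt and BMP signals, was at 743 and 429.9 CPM (-0.78), and Dkk3 was the 1 above 0, at 37.4 and 56.3 CPM. Of the 4 measured genes of Wnt transcription and response, 0 passed 2-fold, and Tcf7l2, a nuclear effector of the pathway, was at 189.5 and 122 CPM (-0.62). Axin2, a common readout of Wnt activity, was low at 17.3 and 21.5 CPM.

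In the BMP and TGF-beta list, 17 of 27 genes were measured, 2 were at least 2-fold lower and 0 higher, against 2.57% lower of all genes, and the median was -0.23 against -0.05. Id4, a BMP-responsive inhibitor of helix-loop-helix factors, was at 189 CPM (184 to 195) in control and 54.3 CPM (50.2 to 58.6) in induced members, a log2 ratio of -1.71. It was found in 32.7% and 11.97% of thinned members, 1.83% and 0.906% of other basal keratinocytes, and 1.63% and 8.06% of fibroblasts. Id1, Id2 and Id3, its relatives, were within 2-fold, at ratios of -0.28, -0.01 and -0.35. Tgfb3 was at 61.2 and 22.5 CPM (-1.27), while Tgfb2 was at 127 and 108 CPM (-0.23) and Tgfb1 at 61.6 and 75.7 CPM (0.28). Bmp7 was at 69.6 and 112 CPM (0.65), and the BMP and activin antagonist Fst at 418 and 272 CPM (-0.61).

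Of 6 measured hedgehog genes, 0 passed 2-fold, as most genes did not (2.01% of all genes were higher and 2.57% lower), and the targets Ptch1 and Gli1, which rise where hedgehog is active, were at 102 and 108 CPM and 29.96 and 32.9 CPM. Gas1, a hedgehog co-receptor, was at 228 and 121 CPM (-0.88). Notch genes numbered 6 measured with 0 past 2-fold, from -0.25 to 0.22, and endothelin genes 3 with 0, of which Edn2 is in the rule. Of 11 measured FGF and EGF genes, Spry1, a feedback inhibitor of receptor tyrosine kinases, was the 1 at least 2-fold higher, against 2.01% of all genes, at 11.98 and 41.9 CPM (1.46), and Egfr was at 48.2 and 24.6 CPM (-0.85).

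Secreted factors of the follicle went both ways, with 3 of 15 measured at least 2-fold higher and 3 lower, against 2.01% and 2.57% of all genes. Cxcl14, a chemokine of follicle and epidermal cells, was at 597 CPM (587 to 608) in control and 1828 CPM (1804 to 1852) in induced members, a log2 ratio of 1.61. Its cell median was 5.01 and 18.3 UMIs per 10000, with middle ranges of 2.36 to 8.86 and 10.5 to 28.9, which did not overlap. Other basal keratinocytes held 514 and 896 CPM. Igfbp7 and Cxcl1 were the others higher, at 28.3 and 105 CPM and 8.82 and 34.4 CPM. Igfbp5 and Igfbp4, which bind insulin-like growth factors, and Nrtn, a neurotrophic ligand of RET receptors, were lower, Igfbp5 at 35.02 and 9.38 CPM (-1.48), Igfbp4 at 190.3 and 91.8 CPM (-1.01) and Nrtn at 136 and 47.8 CPM (-1.42).

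Of 37 measured adhesion and basement membrane genes, 28 were above 0 (of 6029 genes with a UTR, 55.8% were below 0), with a median of 0.30 against -0.05 over all genes, though only 2 were at least 2-fold higher (5.41%, against 2.01% of all genes) and 1 lower (2.70%, against 2.57%). The 40 on the list summed to 4394 and 5739 CPM in members, 4312 and 5652 CPM in other basal keratinocytes, 6033 and 7593 CPM in companion cells and 3642 and 4841 CPM in fibroblasts, so the excess was not found in members alone. Col4a2, a chain of basement membrane collagen, was at 49.3 CPM (46.4 to 52.3) and 113 CPM (107 to 119), a log2 ratio of 1.11, and its partner Col4a1 at 85.9 and 130.2 CPM (0.57). Epcam, an epithelial adhesion molecule, was at 452 CPM (443 to 461) and 829 CPM (813 to 845) (0.87), and 1.10, past 2-fold, without members over 60000 UMIs. P-cadherin, Cdh3, was at 64.1 and 122 CPM (0.88) and E-cadherin, Cdh1, at 130.0 and 161 CPM (0.30). Npnt, nephronectin, which the bulge lays down to anchor the arrector pili muscle, went against the list at 92.98 CPM (88.9 to 97.1) and 26.1 CPM (23.3 to 29.1), a log2 ratio of -1.66. It was found in 19.4% of thinned control members and 5.13% of thinned induced members, against 1.27% and 1.42% of fibroblasts.

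Genes of the cell cycle lay below 0 throughout. All 18 measured S phase genes were below 0, with a median of -0.97, and 7 were at least 2-fold lower (38.9%, against 2.57% of all genes). Rrm2, a subunit of ribonucleotide reductase, was at 134 CPM (129.5 to 139) and 31.1 CPM (28.04 to 34.4) (-1.95), and Pclaf, which binds the replication clamp, at 239 and 61.2 CPM (-1.88). All 17 measured G2/M genes were below 0 too, with a median of -0.78 and 3 at least 2-fold lower, Ccnb1, Nusap1 and Cdc20. Ccnb1, cyclin B1, was at 80.1 and 27.6 CPM (-1.39), and Top2a at 271 and 160.0 CPM (-0.74).

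The share of members with at least 2 UMIs of the G2/M genes, after thinning, was 25.8% (23.3% to 28.4%) in the control and 15.4% (12.6% to 18.6%) in the induced library. Without thinning it was 49.4% and 40.3%. For the S phase genes the thinned shares were 56.0% and 29.7%. Other basal keratinocytes were lower in the induced library too, at 16.4% and 11.2% for G2/M, and fibroblasts stood at 6.69% and 0.474%, so these differences were not found in members alone. The part of free RNA in these shares was not tested. In members with fewer than 2 G2/M UMIs, unthinned, Rrm2 had a ratio of -0.58 and Pclaf -0.71.

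Genes of neighbouring compartments were read as values that move with the comparison, and their part in other results was not tested. Of 7 measured sebaceous genes, 6 were at least 2-fold lower in induced members, against 2.57% of all genes, and the 12 on the list summed to 1377 and 493 CPM. Mgst1, a microsomal transferase, was at 179 and 39.7 CPM (-2.04), with -1.11 without members over 60000 UMIs and 0.19, in the other direction, with members found on thinned cells, and 57.3% of its control UMIs came from 10 members. Other basal keratinocytes held 7318 and 773 CPM of the list, far more in the control than members did. Of 3 measured companion layer genes, Krt16 and Krt6a were at least 2-fold higher and Pinlyp lower, against 2.01% and 2.57% of all genes. The 6 companion layer genes summed to 841 and 558 CPM in members. Upper follicle genes summed to 3667 and 3270 CPM, and 1 of 8 measured, Defb6, was at least 2-fold higher, against 2.01% of all genes. Krt79, a marker of the upper follicle, was at 1814 and 1320.3 CPM (-0.46), but its cell medians were 0.431 and 0.455 UMIs per 10000, and without members over 60000 UMIs its ratio was 0.26, in the other direction. Of 10 measured genes of epidermal differentiation, 2 were at least 2-fold higher, against the same 2.01%, Krtdap at 294 and 735 CPM and Calm4 at 67.9 and 182 CPM. The 20 measured immediate early and stress genes, which respond to dissociation, had 0 past 2-fold, a median of -0.15, and Fos at 1731 and 1574 CPM.

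**Figure D4:**
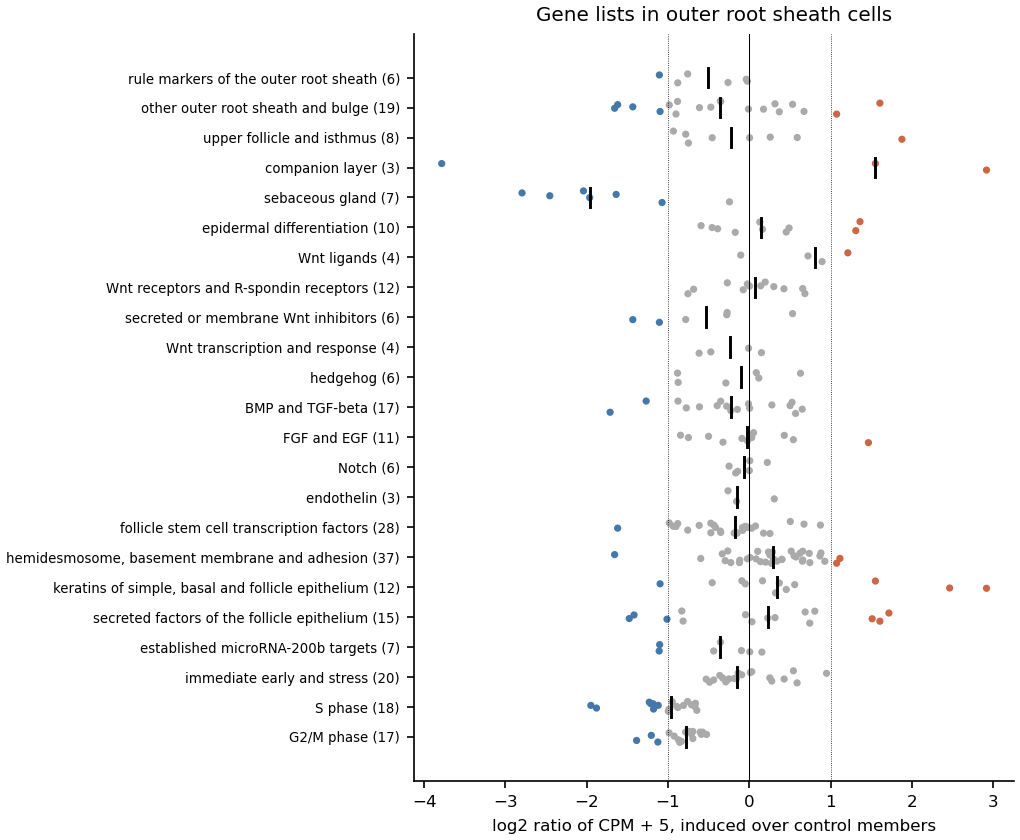
Log2 ratios of CPM plus 5, induced over control members, for each gene that averaged 20 CPM or more in lists with 3 or more such genes (number in brackets). Black bars are medians, dotted lines mark 2-fold, and coloured points passed 2-fold with intervals apart. S phase and G2/M genes all lie below 0, with medians of -0.97 and -0.78.

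Matches to the miR-200b seed were counted in annotated 3′ UTRs of GRCm38. Of 6029 compared genes with a UTR, 4924 held no CAGTATT and had a median ratio of -0.02, 872 held 1 and had -0.15, and 233 held 2 or more and had -0.25. At least 2-fold lower were 2.01% of the genes with 0 matches, 4.82% with 1 and 6.44% with 2 or more, against 2.59% of all genes with a UTR. At least 2-fold higher were 2.19%, 1.03% and 0.429%. Genes with any match had longer UTRs, a median of 2586 bases against 1048, so they were set side by side within 4 classes of UTR length with equal numbers of genes. In each class the genes with a match had the lower median, at -0.46 and -0.03 in the shortest, -0.25 and -0.02, -0.20 and -0.03, and -0.14 and -0.01 in the longest. The genes with a match numbered 45, 161, 308 and 591 from the shortest class to the longest, so the largest gap rests on the fewest genes. Genes with matches to other seeds of keratinocyte microRNAs had medians of 0.01 for let-7a (732 genes, CTACCTC), -0.06 for miR-203 (1180 genes, CATTTCA) and -0.04 for miR-205 (901 genes, ATGAAGG), and for miR-200a (1440 genes, CAGTGTT) -0.10. A UTR could hold matches to several of these seeds, and matches were sought on the transcribed strand only. Other basal keratinocytes gave medians of -0.03 with 0, -0.19 with 1 and -0.34 with 2 or more miR-200b matches. The 24 induced companion cells, which held little Gm13648, gave a like order against the 16 control cells, at -0.14, -0.21 and -0.35. Fibroblasts gave -0.04, 0.08 and 0.14, but there the genes without a match also went with UTR length, at -0.17, -0.05, 0.02 and 0.10 from the shortest class to the longest, where the genes with a match stood at -0.23, -0.05, 0.06 and 0.16. Genes of 1 library share their cells and are not replicates, so these medians carry no test.

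**Figure D5:**
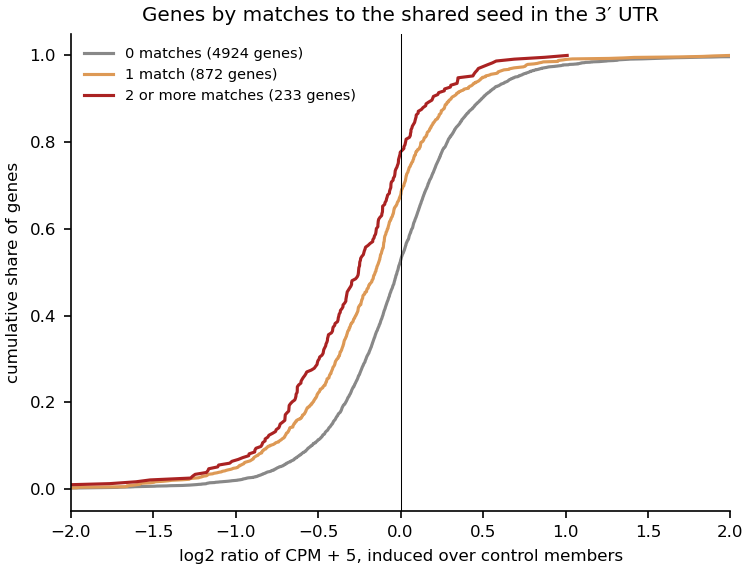
Cumulative share of genes against the log2 ratio of CPM plus 5, induced over control members, for 4924 genes with 0, 872 with 1 and 233 with 2 or more matches to the shared seed of miR-200b in the 3′ UTR; the axis ends at -2 and 2. The curves shift left with the number of matches, with medians of -0.02, -0.15 and -0.25.

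Established targets of the family were read by name. Of 15, 7 were measured and 2 were at least 2-fold lower (28.6%, against 2.57% of all genes). Cfl2, cofilin 2, which severs actin filaments, was at 85.96 CPM (82.1 to 89.97) in control and 37.2 CPM (33.8 to 40.8) in induced members, a log2 ratio of -1.11. Qk, the RNA-binding protein quaking, was at 142 CPM (137 to 147) and 63.4 CPM (59.02 to 68.1) (-1.10). Bmi1 and Suz12, Polycomb proteins, had ratios of -0.36 and -0.44, and Plcg1, Rnd3 and Jag1 had -0.10, 0.15 and 0.01. The best known targets, the repressors of epithelial identity Zeb1 and Zeb2, were near absent from members of both libraries, Zeb1 at 0.0929 and 0.247 CPM and Zeb2 at 0.836 and 2.47 CPM, so no lowering could be read for them at this depth. The E-cadherin gene Cdh1, which those factors repress, was within 2-fold as given above.

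Matches in the UTRs of lower genes, of Qk the first 2 of 5, are shown with 15 bases before and 8 after the match, in the sense of the messenger RNA, with the match in capitals. They were chosen because these genes were the established targets past 2-fold, or among the 5 with a match and the largest deficit, Oat, Scd1, Sptssa, Tuba1b and Rrm2.
Cfl2, first: atataagaagcctgtCAGTATTgccatgag
Cfl2, second: atgggagacttgtttCAGTATTatttatag
Qk, first: tagcaaaataattgtCAGTATTaaatgtgg
Qk, second: tacactgctagactaCAGTATTgctttgta
Sptssa, first: tttgtactttgatatCAGTATTttcttaac
Sptssa, second: tcagatcctctgaggCAGTATTgaccctgt
Scd1, first: taacctattccggtaCAGTATTcttataaa
Scd1, second: aagaaaacatcacatCAGTATTttagaacc
Oat: taaaacatttattttCAGTATTtctttgaa
Tuba1b: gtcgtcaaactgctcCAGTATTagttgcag
Rrm2: tttttttttaatgctCAGTATTatcttgaa
All of them lie in exons annotated as 3′ UTR. On the minus strand of GRCm38 are the windows of Cfl2 (chr12:54860964-54860993 and chr12:54860741-54860770), Qk (chr17:10213770-10213799 and chr17:10210257-10210286), Sptssa (chr12:54646155-54646184 and chr12:54645622-54645651), Scd1 (chr19:44397783-44397812 and chr19:44395855-44395884), Oat (chr7:132557647-132557676) and Tuba1b (chr15:98931530-98931559), and on the plus strand that of Rrm2 (chr12:24713722-24713751). Over the UTRs of all annotated transcripts, Qk held 5 matches, Sptssa 2 and Tuba1b 1, and their longest UTRs had 7014, 1040 and 157 bases. Oat, Sptssa and Tuba1b were lower in other basal keratinocytes as well, with ratios of -3.86, -2.62 and -1.73, and in fibroblasts, which held little Gm13648, Oat was at 205 and 148 CPM, Sptssa at 152 and 129.9 CPM, Tuba1b at 453 and 160.4 CPM and Rrm2 at 33.6 and 6.22 CPM. A match is a description of the letters and not a measured binding site. Rrm2 is also a gene of S phase, whose list was lower as a whole, and Scd1 rested in members on few cells.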

How the data were processed

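The deposited values were raw UMI counts per gene and barcode in 32285 genes, made with Cell Ranger 6.0.0 on mm10, per the submitters' processing notes, from 10x Genomics 3′ v3.1 libraries, per the labels' protocols. The cell-calling settings are not given in the sources used here. The members and the gene lists were chosen with earlier results of these data known.

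UMI counts were summed over each library's members and scaled to CPM, with exact intervals from the Poisson distribution. Ratios are log2 of CPM plus 5, induced over control, and where an interval follows a ratio it is that of the plain ratio from an exact conditional binomial. A gene was compared at a mean of at least 20 CPM and counted as higher or lower at 2-fold with intervals apart. No test was possible with 1 library per group. Named between the libraries were the 12 largest excesses and 12 largest deficits among genes at 100 UMIs or more in both libraries together, 50 CPM in the higher one and intervals apart, where haemoglobin, ribosomal protein, mitochondrial and sex-linked genes were left out. Named against other basal keratinocytes were the 12 highest and 6 lowest in both libraries, and named for seed matches the 5 with the largest deficit at 50 CPM or more in the control. Comparison classes were gated cells with 0 of 6 markers, cells with Krt75 at 5 or more per 10000, and fibroblasts with Col1a1 and Col3a1 at 100 or more per 10000. Shares have Clopper-Pearson intervals, and the limit beside a count of 0 is 3 counts of the total, and cells were thinned to 2000 UMIs with a fixed seed. Doublets were scored with Scrublet in scanpy 1.11.5, kept, and removed as an alternative. 3′ UTRs came from GENCODE M21, where 32235 of 32285 gene identifiers were found and 20908 genes had a UTR. Matches were pooled over the UTRs of all annotated transcripts of a gene, and its longest UTR gave the length. The steps ran in Python 3.11.15 with numpy 2.4.6, scipy 1.17.1, pandas 2.3.3 and matplotlib 3.10.9. The counting rule was tested on simulated data for the comparison of members. Alternatives changed the marker number, depth, doublets, filters, pseudocount and weighting.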

Additional observations from a re-analysis of the deposited data

Results flagged for a closer look

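In 3 genes the induced members and the induced basal keratinocytes with 0 of 6 markers stood on opposite sides of the control by at least 2-fold, with intervals apart in both classes. Each class had 1 library per group, so whether the classes differ was not tested. The basal keratinocytes with 0 of 6 markers were mixed, with sebaceous genes summed to 7318 CPM in the control and 773 CPM in the induced library. The part of that mix in these values was not tested.

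Postn, periostin, a matrix protein, was at 117 CPM in control and 253 CPM in induced members, a log2 ratio of 1.07, and at 215 and 69.8 CPM in the other basal cells, a ratio of -1.56. Fibroblasts, whose gene list holds Postn, were at 702 and 762 CPM, and their part in the members' values was not tested. The 10 highest members held 7.79% and 9.34% of its UMIs. Ccl27a, a chemokine of skin keratinocytes, had a ratio of 1.07 in members, from 57.6 to 127 CPM, and of -1.49 in the other basal cells, from 718 to 252 CPM. Prss22, a serine protease, had a ratio of 1.33 in members, from 20.9 to 59.96 CPM, and of -2.23 in the other basal cells, from 73.5 to 11.7 CPM, but 69.5% of its UMIs in induced members came from 10 cells.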

How the results depend on the processing

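No paired analysis was possible because each group had 1 library. Members were fewer in the induced library under every alternative run. The log2 ratio of their share was -0.79 with at least 2 of 6 markers, -1.32 with at least 4, -1.66 when members were found on thinned cells and -0.83 as a share of gated keratinocytes, and it stayed within the counting interval of the reported value under the others. The number of genes at least 2-fold higher was 63 with 20 CPM added, 291 with no minimum level and 59 at a minimum of 50 CPM, and of genes lower 84, 260 and 92 under the same settings. It was 246 lower genes when members were found on thinned cells, which left 268 and 81 members, and 97 of these were among the 157, and 80 of the 123 higher genes were called again. In members with fewer than 2 G2/M UMIs 93 of the 157 lower and 88 of the 123 higher genes were called again. Of the 24 named genes, 8 were named again under the alternative that kept the fewest of them, and 16 to 24 under the others. Against gated cells with fewer than 3 of 6 markers in place of 0, 90 genes were higher in members, where the reported comparison gave 137 of 5361 (2.56%).

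For 4 genes the direction turned. The ratio of Pinlyp was 3.81 with members found on thinned cells, 1.70 in members with fewer than 2 G2/M UMIs and 1.44 without cells over 60000 UMIs. Krt79 gave 0.10 with the highest 7% of Scrublet scores removed, 1.92 on thinned cells, 1.21 with fewer than 2 G2/M UMIs, 0.26 without cells over 60000 UMIs and 0.25 per cell. Stfa3 gave -0.32 and Mgst1 0.19 on thinned cells. The cause was not tested. Of 804 values of 67 genes under 12 alternatives, 488 lay within the counting interval of the reported value, 306 outside it without turning, and 10 turned.

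The limit of 60000 UMIs, the cells left out for shared barcodes, the Shh and Msx2 limit, the share among Krt5 and Krt14 cells and the alternatives of the comparison with other basal keratinocytes were chosen after seeing the data. Depth limits the low genes, since members carried medians of 13698 and 16549 UMIs, and Zeb1 and Zeb2 could not be read for a difference. Without replicates, the spread between animals is unknown for every value.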
